A study of Mus musculus with 24 samples.

Results

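The Hippo pathway core examined here comprises 10 mouse genes: the coactivators Yap1 and Wwtr1 (Taz), the DNA-binding partners Tead1, Tead2, Tead3 and Tead4, and the kinases Lats1, Lats2, Stk3 and Stk4. The genes were taken by name, and all 10 were found among the 21887 protein-coding genes of the mm10 assembly used here. Peaks of each library were assigned to a gene when their summit lay within 1000 bp of either gene end, or in the gene with 10000 bp on each side, called the body window. CUT&RUN, in which an antibody tethers a nuclease that releases the DNA around a bound protein, had been done for the transcription factor Sox9 and for H3K4me3, a histone mark of active promoters. The cells were kidney cells of male Sox9IRES-CreERT2/+:R26RtdT/+ mice, 9 to 12 weeks old, in which tamoxifen given at bilateral ischaemia-reperfusion injury marks cells with Sox9-driven Cre and their progeny with tdTomato. Cells positive for tdTomato were sorted at 48 h or at 10 days, with 4 biological replicates per time, and each pellet was divided between Sox9, H3K4me3 and input. Every group therefore carried the same alleles, tamoxifen and injury, and none of the 24 samples is labelled uninjured. The cell type label of all samples names the later time, so times follow the titles. The label follows the Sox9 locus, so the population is defined by Sox9 expression at injury.

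In the Hippo pathway, Stk3 and Stk4 activate the Lats kinases, which phosphorylate Yap1 and Wwtr1 and hold them out of the nucleus. When the kinases are quiet, Yap1 and Wwtr1 enter the nucleus and switch on genes through the Tead proteins. The pathway restrains growth of epithelia, and in the kidney Yap1 is known for its activity in tubule cells after injury.

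The 16 antibody lists held 7706 to 85415 peaks for Sox9 and 25811 to 88496 for H3K4me3 on the autosomes and sex chromosomes, and sequencing depth is unknown. Within a list, peak heights were whole multiples (within 0.05, for at least 99.7% of peaks) of a smallest height, called a step here, and 92.5% to 97.8% of peaks stood at 1 step. The pileup that makes 1 step ranged from 59.9 to 507 between lists, so steps describe heights within a list and are not a common scale. H3K4me3 peaks at gene ends did not single out the labelled cells: for 12 tubule markers, 14 of the 96 gene and library pairs had one (14.6%), with 4 of 40 for endothelial, 2 of 40 for immune and 4 of 40 for stromal markers, where all protein-coding genes had 17.3%. How mixed the sorted cells were was not tested. In peak lists of many cells, fewer bound cells and weaker binding per cell cannot be told apart.

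Of the 10 genes, Yap1 carried the recurrent signal, with a peak at its start in 5 of 8 Sox9 libraries (at least 5 of 8 at 0.311% of all genes) and 7 of 8 H3K4me3 libraries (at least 7 of 8 at 0.132%). Tead3, Lats1 and Lats2 each had Sox9 end peaks in 3 of 8 libraries (at least 3 of 8 at 6.32% of all genes), Wwtr1, Tead1 and Tead2 in 1 of 8 each, and Tead4, Stk3 and Stk4 in 0 of 8. Counting each gene in each library as a pair, 17 of 80 pairs had a Sox9 end peak (21.25%), where the whole gene set had 9.98%. For H3K4me3 the count was 21 of 80 (26.25%), against 17.3%. Without Yap1 the counts were 12 of 72 (16.7%) for Sox9 and 14 of 72 (19.4%) for H3K4me3. The median member had a Sox9 end peak in 1 of 8 libraries, as did the median gene, and an H3K4me3 end peak in 2 of 8, against 1 of 8 for the median gene. Because these genes were chosen with earlier results of the same lists known, these counts are descriptions and carry no test.

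**Figure D1:**
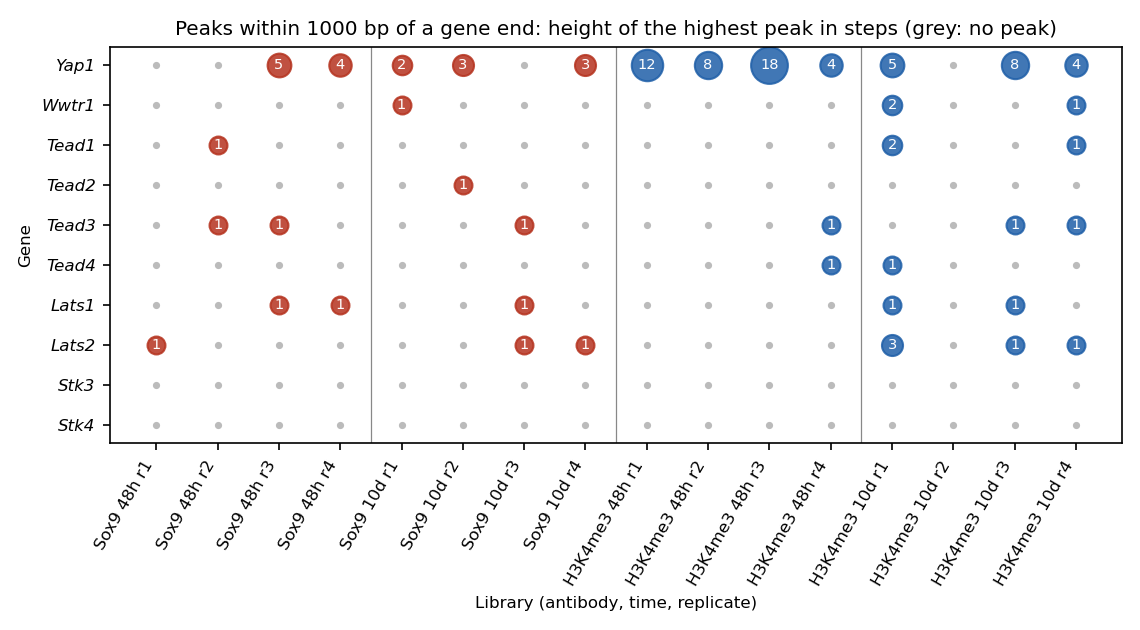
Peaks within 1000 bp of a gene end for the 10 genes (rows) in the 16 libraries (columns: antibody, time, replicate). Each disc is a gene and library with a peak, numbered and sized by the height of its highest peak in steps, and grey dots mark no peak. Yap1 has peaks of 2 to 5 steps in 5 Sox9 libraries and of 4 to 18 steps in 7 H3K4me3 libraries, while every Sox9 disc of the other genes is at 1 step.

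In single libraries, between 1 and 3 of the 10 genes had a Sox9 end peak and between 0 and 6 had an H3K4me3 end peak. The Sox9 share lay above that of all genes in 7 of 8 libraries. The exception was 10d replicate 1, the longest Sox9 list, with 20% of the members and 20.7% of all genes. The H3K4me3 share lay above that of all genes in 4 of 8 libraries. It was 60% of members against 37.2% of all genes in H3K4me3 10d replicate 1, and 0% against 12.4% in H3K4me3 10d replicate 2.

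**Figure D2:**
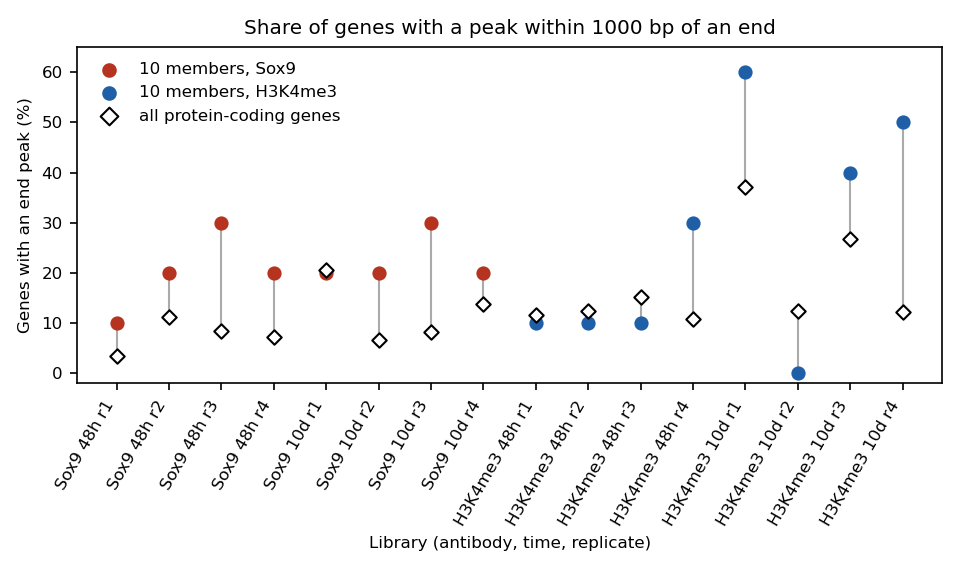
Percentage of genes with a peak within 1000 bp of an end in each library (columns), for the 10 Hippo genes (filled discs) and all protein-coding genes (open diamonds), joined by a line. The Sox9 discs lie between 10% and 30%, and the H3K4me3 discs range from 0% to 60%.

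Yap1 encodes the main transcriptional coactivator restrained by the pathway (GRCm38.p6, chromosome 9, 7931999 to 8004638, minus strand). Its RefSeq start used here is position 8004596, at the higher-coordinate end, and no other annotated gene lies within 1000 bp of that end. In 11 of 16 libraries the peaks at this end overlapped within chromosome 9, 8004033 to 8004389, inside the gene, and all 11 covered 8004140 to 8004241. Their summits lay 346 to 418 bp downstream of the start in the 4 Sox9 libraries and 363 to 399 bp downstream in the 7 H3K4me3 libraries, so the H3K4me3 summits fell inside the 72 bp spanned by the Sox9 summits. Of 520412 merged regions of the 16 lists, 0.034% had a peak in at least 11 lists. Input signal and how uniquely reads map in this region were not analysed here.

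By library, the Sox9 peak of this region stood at 5 steps in 48h replicate 3, 4 steps in 48h replicate 4, 3 steps in 10d replicate 2 and 3 steps in 10d replicate 4. It was not called in 48h replicates 1 and 2 or in 10d replicates 1 and 3. H3K4me3 reached 12, 8, 18 and 4 steps in 48h replicates 1 to 4, and 5, 8 and 4 steps in 10d replicates 1, 3 and 4, with none called in 10d replicate 2. For Sox9 the peak was thus present in 2 of 4 libraries at each time, and for H3K4me3 in 4 of 4 at 48 h and 3 of 4 at 10 days. Peaks at least as high made up 0.362% to 0.622% of the Sox9 lists concerned and 0.115% to 0.426% of the H3K4me3 lists. The authors' fold enrichment there was 43.7 to 88.4 for Sox9 and 45.3 to 139 for H3K4me3.

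**Figure D3:**
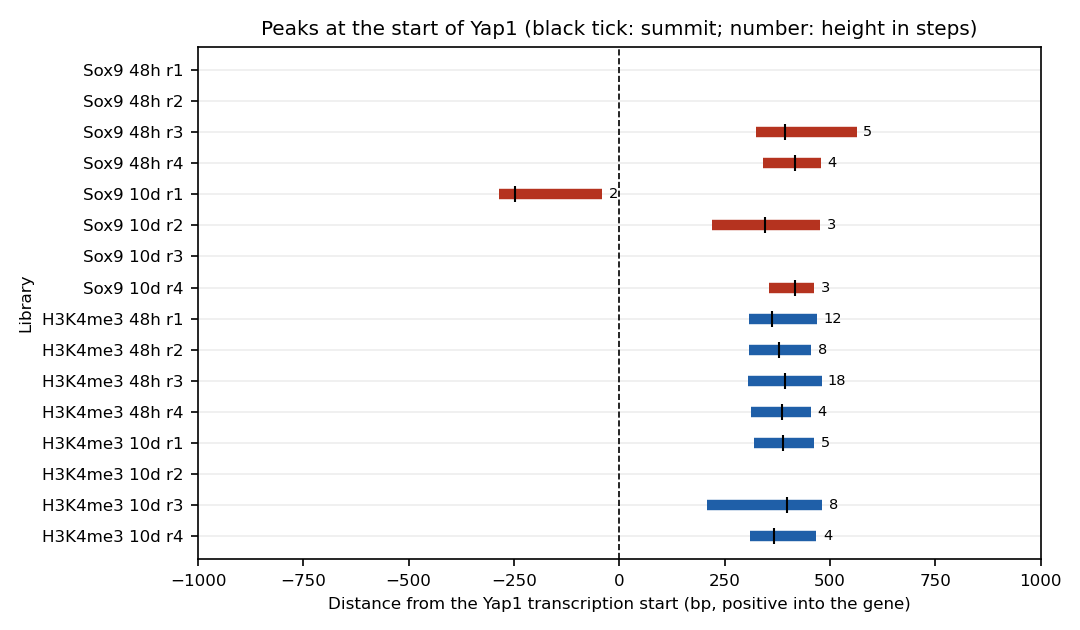
Peaks at the start of Yap1 in the 16 libraries (rows), drawn to scale as bars against distance in bp from the transcription start (dashed line, positive into the gene). Black ticks are summits and numbers are heights in steps. The summits of 11 libraries lie 346 to 418 bp into the gene, and that of Sox9 10d replicate 1 lies 247 bp before the start.

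The remaining Sox9 peak at this end, in 10d replicate 1, stood at 2 steps with its summit 247 bp upstream of the start, outside the recurrent region. In that list 4.15% of peaks were as high. An end peak of 2 or more steps in at least 5 of 8 Sox9 libraries was found at 6 of 21887 genes (0.0274%). Besides Yap1 these were Krtap6-2, Pgk1, Rps29, Sfi1 and Wls, named here after their values were seen. Each of the 5 also had an H3K4me3 end peak of 2 or more steps in at least 7 of 8 libraries, as Yap1 did and as 0.0411% of all genes did.

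Pellets gave a Yap1 peak with both antibodies in 4 of 8 cases, with Sox9 alone in 1, with H3K4me3 alone in 3 and with neither in 0. In 3 of the 4 the peaks overlapped, and the summits in the 4 pellets were 0 to 636 bp apart. Over all 10 genes, 9 of 17 Sox9 end pairs had an H3K4me3 end peak of the same gene and pellet (52.9%), against 28.2% over all genes. Without Yap1 the share was 5 of 12 (41.7%).

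The genes whose presence over the 16 libraries was most like that of Yap1, by Jaccard index, were LOC100504180 (0.857, peaks in 14 libraries), Fmnl1 (0.75, 9 libraries), Gm40367 (0.75, 9), Krtap6-2 (0.75, 16) and Lrrc8d (0.75, 9), the last 4 among 7 genes tied at that value. The median gene had an index of 0.143. Among the other members the index was 0 for Stk3 and Stk4 and at most 0.308, for Lats1.

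Promoter sequence from 250 bases before to 50 bases after a RefSeq start was at hand for 7 of the 10 genes, and 4 windows that hold a summit are shown to place the peaks. The recurrent Yap1 region begins beyond the end of its window, so its letters are not shown. All are GRCm38.p6, 5′ to 3′ on the gene's strand, and capitals mark the bases covered by the named peak. Yap1 is chr9:8004547-8004846 (minus strand) with the 2-step peak of Sox9 10d replicate 1, summit at base 4. Lats1 is chr10:7680959-7681258 (plus strand) with the 1-step peak of Sox9 48h replicate 3, summit at base 239. Lats2 is chr14:57746074-57746373 (minus strand) with the 3-step peak of H3K4me3 10d replicate 1, summit at base 234. Wwtr1 is chr3:57575861-57576160 (minus strand) with the 2-step peak of H3K4me3 10d replicate 1, summit at base 164.
Yap1: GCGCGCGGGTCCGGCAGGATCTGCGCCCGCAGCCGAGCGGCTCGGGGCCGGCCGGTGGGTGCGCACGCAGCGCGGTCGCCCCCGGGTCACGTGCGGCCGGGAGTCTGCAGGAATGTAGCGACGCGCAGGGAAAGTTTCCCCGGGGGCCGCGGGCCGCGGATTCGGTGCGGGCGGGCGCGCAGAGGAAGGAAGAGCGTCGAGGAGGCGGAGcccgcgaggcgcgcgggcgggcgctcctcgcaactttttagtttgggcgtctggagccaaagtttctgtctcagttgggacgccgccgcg
Lats1: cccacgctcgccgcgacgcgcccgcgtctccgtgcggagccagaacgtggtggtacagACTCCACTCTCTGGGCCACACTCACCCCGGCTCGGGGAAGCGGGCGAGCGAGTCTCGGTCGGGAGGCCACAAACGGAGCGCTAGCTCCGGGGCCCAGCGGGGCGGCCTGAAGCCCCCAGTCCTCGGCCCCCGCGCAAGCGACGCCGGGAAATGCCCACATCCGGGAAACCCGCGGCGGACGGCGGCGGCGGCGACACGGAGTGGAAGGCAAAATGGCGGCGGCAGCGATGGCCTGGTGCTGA
Lats2: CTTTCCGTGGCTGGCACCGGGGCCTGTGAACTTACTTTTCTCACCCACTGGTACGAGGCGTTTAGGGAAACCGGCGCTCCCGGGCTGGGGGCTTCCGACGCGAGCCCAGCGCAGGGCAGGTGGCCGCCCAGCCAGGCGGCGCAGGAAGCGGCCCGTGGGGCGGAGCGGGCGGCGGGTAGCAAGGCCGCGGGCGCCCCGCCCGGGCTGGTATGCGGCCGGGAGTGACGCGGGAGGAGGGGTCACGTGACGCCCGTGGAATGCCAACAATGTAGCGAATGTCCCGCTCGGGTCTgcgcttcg
Wwtr1: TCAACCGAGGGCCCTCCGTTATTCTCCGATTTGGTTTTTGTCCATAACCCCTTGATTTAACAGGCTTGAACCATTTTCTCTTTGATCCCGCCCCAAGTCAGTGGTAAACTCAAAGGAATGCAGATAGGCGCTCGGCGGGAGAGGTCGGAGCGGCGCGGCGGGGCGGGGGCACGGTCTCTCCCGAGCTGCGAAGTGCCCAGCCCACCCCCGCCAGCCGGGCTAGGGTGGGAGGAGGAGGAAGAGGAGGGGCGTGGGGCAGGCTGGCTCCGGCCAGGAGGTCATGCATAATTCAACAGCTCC

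These windows are rich in G and C: 74% in Yap1, 73% in Lats1, 71.67% in Lats2 and 61.67% in Wwtr1, against a median of 56.33% over 21263 promoters of protein-coding genes. CG pairs numbered 49, 42, 37 and 20, against a median of 13. Windows without a summit varied: Stk4 had 61.67% and 20 CG pairs, as Wwtr1 did, and the second Lats2 window had 42.67% and 4. On either strand, the Sox letters ACAATG were found in a promoter of 1 of the 7 genes (Lats2, at base 264) and ACAAAG in 1 (Tead2, at base 223), against 12.8% and 19.1% of 17492 genes. The Tead letters GGAATG were found in promoters of 4 of the 7 genes, against 15.5% of genes. The base is 110 in Yap1, 115 in Wwtr1 and 255 in Lats2, counted from 1 at the 5′ end of the windows above, and Tead3 has it at 4 places in its 3 overlapping windows, counted by window. None of the printed windows holds overlapping matches. A match is a description of letters, and these windows do not contain the recurrent Yap1 region.

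Wwtr1, the paralogue of Yap1 (chromosome 3, 57455644 to 57575910), had few peaks at its start. Sox9 10d replicate 1 had a 1-step peak 896 bp downstream of a start, and the other 7 Sox9 libraries had none. H3K4me3 10d replicates 1 and 4 had peaks of 2 and 1 steps with summits 87 and 154 bp upstream of a start, and the 4 libraries of 48 h and 10d replicates 2 and 3 had none. The Sox9 and H3K4me3 peaks of pellet 10d replicate 1 were 1017 bp apart.

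The Tead genes encode the DNA-binding partners of Yap1 and Wwtr1, and all their Sox9 end peaks were at 1 step. Tead1 (chromosome 7, 112679356 to 112906784) had 2 Sox9 peaks in 48h replicate 2, 401 bp below and 295 bp above its lower-coordinate end, and H3K4me3 peaks 105 and 124 bp below that end in 10d replicates 1 (2 steps) and 4 (1 step). Tead2 (chromosome 7, 45215792 to 45233468) had a single end peak, of Sox9 in 10d replicate 2, at 997 bp from its start, the edge of the window. Tead3 (chromosome 17, 28331671 to 28350805) had Sox9 end peaks in 48h replicates 2 and 3 and 10d replicate 3, and H3K4me3 end peaks in 48h replicate 4 and 10d replicates 3 and 4. At the Tead3 start, the Sox9 peak of 48h replicate 2 overlapped the H3K4me3 peak of 10d replicate 3, and the Sox9 peak of 10d replicate 3 overlapped the H3K4me3 peak of 48h replicate 4. The remaining Sox9 peak lay at the far end, and Rpl10a and Tulp1 lie within 1000 bp of its lower and higher ends. Tead4 (chromosome 6, 128227143 to 128300813) had H3K4me3 end peaks in 48h replicate 4 and 10d replicate 1 and no Sox9 end peak.

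Lats1 and Lats2 encode the kinases that phosphorylate Yap1 and Wwtr1. Lats1 (chromosome 10, 7681200 to 7716461) had 1-step Sox9 peaks at its start in 48h replicates 3 and 4 and 10d replicate 3, with H3K4me3 peaks in 10d replicates 1 and 3. Of these, 3 Sox9 peaks and the H3K4me3 peaks of 10d replicate 3 merged into chromosome 10, 7681017 to 7681974, a region with peaks in 4 of 16 libraries. Pcmt1 lies within 1000 bp of the same end, so the Lats1 peaks cannot be given to a single gene. Lats2 (chromosome 14, 57689662 to 57746212) had Sox9 peaks near its start in 10d replicates 3 and 4, and at its far end in 48h replicate 1. Its H3K4me3 end peaks were all at 10 days, in replicates 1, 3 and 4, with 0 of 4 libraries at 48 h. The highest stood at 3 steps in 10d replicate 1, 17 bp upstream of the start at 57746123, and Gm52140 lies within 1000 bp of this end. H3K4me3 end peaks in at least 3 of 4 libraries of 10 days and 0 of 4 of 48 h were found for 475 of 21887 genes. Over all genes, H3K4me3 end pairs were 12.5% at 48 h and 22.1% at 10 days. Stk3 and Stk4 encode the kinases at the head of the cascade. Neither Stk3 (chromosome 15, 34875499 to 35155882) nor Stk4 (chromosome 2, 164074113 to 164155524) had an end peak in any of the 16 libraries.

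Most of these peaks lay at starts. Of the 7 genes with a known strand, 14 Sox9 peaks were at the start and 2 at the far end, and all 19 H3K4me3 peaks were at the start. Yap1 gave 5 of the 14 and 7 of the 19. Among all genes with a known start, 8.26% of Sox9 pairs and 15.3% of H3K4me3 pairs had a peak within 1000 bp of it. For the 7 members these shares were 25% and 30.4%, with Yap1 present in 5 of 8 and 7 of 8 libraries. At either end of all genes, with or without a known start, the shares were 9.98% and 17.3%. Whether a lean towards starts is particular to the members was not tested. Outside Yap1, 13 of 13 Sox9 end peaks stood at 1 step, and 4 of 16 H3K4me3 end peaks stood at 2 or 3 steps. All 4 were from 10d replicate 1, the longest H3K4me3 list, where 7.5% of peaks stood at 2 or more steps. Over all genes, 1082 of 17475 Sox9 end pairs and 5140 of 30324 H3K4me3 end pairs had a peak of 2 or more steps. Pairs with an end peak of 2 or more steps numbered 5 for Sox9, all of Yap1 (0.618% of pairs over all genes), and 10 for H3K4me3 (2.94%).

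Body windows held a Sox9 peak in 55 of 80 pairs (68.75%, where all genes had 43.9%) and H3K4me3 in 65 of 80 (81.25%, where all genes had 59.9%). A body-window peak in 8 of 8 libraries was found for 0 members with Sox9 (3.48% of all genes) and for Tead1, Tead3, Tead4 and Stk3 with H3K4me3 (12.8%). The members are long genes, with a median length of 73156 bp against 17169 bp for all genes, and longer windows hold more peaks. Per 100 kb of window the members had 10.6 Sox9 peaks summed over the 8 libraries, against 10.8 over all genes, and 18.2 H3K4me3 peaks against 17.6. Density in the window was thus close to that of all genes for either antibody, at ratios of 0.979 and 1.03. Single genes ranged for Sox9 from 6.66 per 100 kb in Stk3 to 23.0 in Tead3, and for H3K4me3 from 4.99 in Wwtr1 to 46.0 in Tead3. Yap1, at 9.72 and 20.5, was near the level of all genes.

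Away from the ends the members had 8 Sox9 peaks of 2 or more steps, none above 2 steps, and 7 of these were from 10d replicate 1. The 11 such H3K4me3 peaks included 4 within Yap1. At chromosome 9, 8001462 to 8001717, they stood at 4 steps in 48h replicate 1 and 11 steps in 48h replicate 3. At chromosome 9, 7952970 to 7953128, they stood at 2 steps in 48h replicate 1 and 4 steps in 10d replicate 3. No Sox9 library had a peak in either region. Of 292 merged regions in the 10 windows, 31 had peaks in at least 2 libraries and 6 in at least 3, against 7.27% and 1.6% of merged regions over the genome. After the Yap1 start, the most shared were the Lats1 start and an H3K4me3 region within Stk3, chromosome 15, 35117727 to 35118358, each with peaks in 4 libraries. The Lats1 region is a chain of peaks with no base common to all its libraries. Its Sox9 peak of 48h replicate 3 ends at 7681346, and that of 48h replicate 4 begins at 7681676.

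Whether the genes differed between 48 h and 10 days, the comparison of the design, was tested on the number of body-window peaks per 10000 peaks of the list. Wwtr1 had the lowest p for H3K4me3. It had 2, 2, 1 and 2 peaks in 10d replicates 1 to 4 and 0 in each library of 48 h, so the times did not overlap. Scaled by list length this was 0.406 ± 0.264 (SD, n = 4) at 10 days and 0 at 48 h (two-sided exact permutation p = 0.0286, adjusted p = 1 over 21175 genes). An unadjusted p under 0.05 was reached by 425 genes (2.01%; 1.24% higher at 10 days), and Wwtr1 was the 1 member among them. Leaving out 1 library gave exact p from 0.0286 to 0.0857. With equal list lengths the exact permutation p was 0.143, and only 1 of the Wwtr1 peaks stood at 2 or more steps.

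Tead3 had the lowest p for Sox9. Its peaks numbered 1, 1, 1 and 2 in 48h replicates 1 to 4 and 2, 0, 1 and 1 in 10d replicates 1 to 4, and list lengths set the scaled values apart. Those were 0.872 ± 0.442 at 48 h and 0.265 ± 0.236 at 10 days (mean ± SD, n = 4 each, exact permutation p = 0.0571, adjusted p = 1). The times overlapped. Only 1 of these peaks stood at 2 or more steps, in 10d replicate 1. Per 10000 peaks of 2 or more steps, another scale, this single peak gave a difference of 0.706 (10 days minus 48 h). With equal list lengths the difference was 0, and leaving out 1 library gave exact p from 0.0286, without Sox9 48h replicate 2, to 0.143. None of the members reached an unadjusted p under 0.05 for Sox9, against 324 of 20538 genes (1.58%).

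Yap1 overlapped between the times for either antibody. For Sox9 it had 0.305 ± 0.352 at 48 h and 0.518 ± 0.588 at 10 days (mean ± SD, n = 4 each, exact permutation p = 0.629, adjusted p = 1). The difference of 0.213 turned to -0.0649 without Sox9 10d replicate 2. Per 10000 peaks of 2 or more steps, another scale, it was -1.78. There, 48h replicates 3 and 4 and 10d replicates 1, 2 and 4 had 1 peak each, so list lengths set the sign. For H3K4me3 it had 0.890 ± 0.768 at 48 h and 0.340 ± 0.256 at 10 days (mean ± SD, n = 4 each, exact permutation p = 0.229, adjusted p = 1). The 48 h mean includes 2.03 in replicate 1, which had 6 peaks in the window, and without that library the difference was -0.169.

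**Figure D4:**
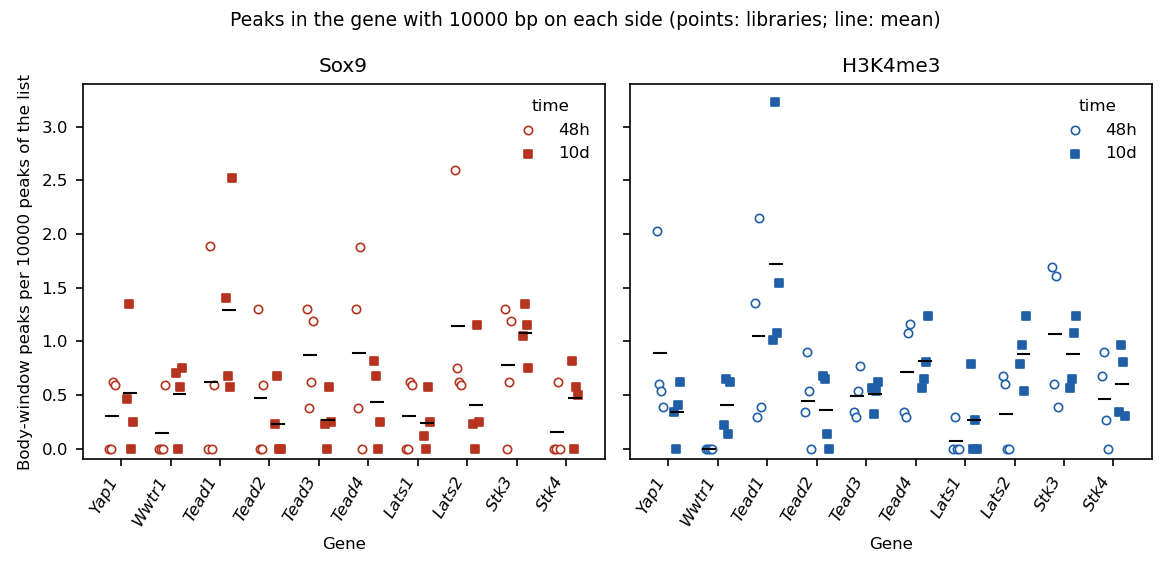
Peaks in each gene with 10000 bp on each side, per 10000 peaks of the list, for Sox9 (left) and H3K4me3 (right). Points are libraries, open circles 48 h and filled squares 10 days, and black lines are the means of 4 libraries. The times overlap for every gene except Wwtr1 in H3K4me3, where the 4 libraries of 48 h lie at 0.

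At gene ends, Sox9 pairs of the members numbered 8 of 40 at 48 h and 9 of 40 at 10 days, where all genes had 7.64% and 12.3% of pairs. H3K4me3 pairs numbered 6 of 40 and 15 of 40, where all genes had 12.5% and 22.1%. Counts of end pairs are not scaled by list length. Lists of 10 days averaged 39320 peaks for Sox9 and 56545 for H3K4me3, against 16760 and 31455 at 48 h. None of the members had an end peak in 4 of 4 libraries of a time and 0 of 4 of the other. For Sox9 this held for 4 genes at 10 days (0.0183%) and 1 gene at 48 h (0.00457%), and for H3K4me3 for 49 (0.224%) and 3 (0.0137%).

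Sox9 and H3K4me3 were then compared over all 16 libraries in the same measure. Stk4 had the lowest p, with 0.316 ± 0.349 in Sox9 and 0.534 ± 0.351 in H3K4me3 libraries (mean ± SD, n = 8 each, exact permutation within times, p = 0.209, adjusted p = 1), and with equal list lengths the direction turned (difference 0.487, Sox9 minus H3K4me3). Yap1 had 0.412 ± 0.463 and 0.615 ± 0.606 (mean ± SD, n = 8 each, exact permutation p = 0.512, adjusted p = 1). The Yap1 difference of -0.203 went to -0.00075 without H3K4me3 48h replicate 1 and to -0.338 without Sox9 10d replicate 2. No member reached an unadjusted p under 0.05 here, against 977 of 21559 genes (4.53%). For all 3 comparisons 0 genes passed after adjustment (0%). With 70 arrangements the smallest p a time comparison can give is 0.0286, so in lists of this number an adjusted call could not be reached by a few genes.

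Other pathway genes were read from lists of 34 regulators and 21 targets of Yap1 and Tead. A Sox9 end peak was present for 24 of 34 regulators and 13 of 21 targets in at least 1 library (51.5% of all genes), and 0 of either had one in 5 or more libraries (0.311%). An H3K4me3 end peak was present for 32 of 34 and 17 of 21 in at least 1 library (68.3% of all genes), and 2 genes of each list had one in 5 or more (2.33%). The shares of pairs were 13.6% and 13.1% for Sox9 (9.98% over all genes) and 29.4% and 26.8% for H3K4me3 (17.3%). Among regulators, Stk38l, a kinase related to Lats1, had a Sox9 end peak in 3 of 8 libraries and an H3K4me3 end peak in 2 of 8. Mob1b, a Lats cofactor, had one in 2 of 8 and an H3K4me3 end peak in 6 of 8. Vgll4, a Tead-binding competitor of Yap1, had one in 2 of 8 and an H3K4me3 end peak in 4 of 8. Over all genes, Sox9 end peaks were found in at least 3 of 8 libraries for 6.32% and in at least 5 of 8 for 0.311%. Of the targets, F3, the gene of tissue factor, had a Sox9 end peak in 4 of 8 libraries and an H3K4me3 end peak in 0 of 8. Dock5, a Rac activator, had them in 3 of 8 and 5 of 8, with all 3 Sox9 peaks at 10 days. Ccn1, a matrix protein gene and classical Yap1 target, had them in 2 of 8 and 4 of 8. Arhgef17 had them in 2 of 8 and 3 of 8. Sox9 end peaks in at least 3 of 4 libraries of 10 days and 0 of 4 of 48 h, as for Dock5, were found for 128 of 21887 genes. Over all genes, Sox9 end pairs were 7.64% at 48 h and 12.3% at 10 days.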

How the data were processed

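Peak lists of 16 libraries (Sox9 or H3K4me3, 4 per time) were used, and the 8 inputs had no list analysed here. Partek 10, Bowtie2, Bowtie and MACS3 with mm10 are named in the submitters' processing notes, and the peak names in the deposited files give, for every library, its pellet's own input as control. Read filters, duplicate handling and calling thresholds, which could set how many peaks a list holds, are not given in the sources used here. The authors' deposited values are a fold enrichment ratio over local background, a p-value and a q-value as −log10, and a display score, which was not used.

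Height steps were solved from the deposited fold and p-value, assuming a Poisson tail. Gene positions and promoter sequences were from RefSeq GRCm38.p6, and strand was known for 7 members. Two-sided exact permutation tests ran over all protein-coding genes with a body-window peak, with Benjamini-Hochberg adjustment. They were also run on simulated data with changes placed only among genes with the highest peak rates, which does not cover genes with few peaks. The members, lists and rules were chosen with earlier results of these data known. Differences are printed for Yap1 and the member with the lowest p per comparison. Of each pathway list the 4 genes with most Sox9 libraries are named, except 1 regulator that is not reported here. Likeness is the Jaccard index over 16 libraries, and the motifs were chosen after the peaks had been seen.

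Sox9 and H3K4me3 libraries of a pellet are paired by the labels' protocols, and their deviations correlated between -0.011 and 0.012. Libraries of different times share only a number. At most 13 peaks were identical between lists of the same antibody. Computation used SciPy 1.17.1 with NumPy 2.4.6, pandas 2.3.3 in Python 3.11.15, and Matplotlib 3.10.9.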

Additional observations from a re-analysis of the deposited data

Results flagged for a closer look

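Of 28 groups of 4 libraries examined, 5 had a library far from the others, by a rule that marks about 1 in 20 groups by chance for continuous values. In 4 of the 5 the other 3 libraries were tied, so that any differing value is marked, and the number marked is not read as an excess. In Sox9 10d replicate 3, 3.0 members had an end peak, where the other 3 libraries had 2 each. In H3K4me3 48h replicate 4 the count was 3.0, where the others had 1 each. Yap1 in H3K4me3 48h replicate 1 was at 2.03 body-window peaks per 10000 list peaks, where the others were at 0.387 to 0.601. Stk4 in Sox9 48h replicate 3 was at 0.626 and Wwtr1 in Sox9 48h replicate 4 at 0.594, each a single peak where the other 3 libraries had 0. No member's time difference was found to differ between the antibodies after adjustment (lowest exact permutation p = 0.0286, for Tead3, adjusted p = 1).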

How the results depend on the processing

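For each of the 3 comparisons 0 genes passed after adjustment under every alternative run, with the replicate block included. Under the block 0, 0 and 661 genes had an unadjusted exact p under 0.05 for time in Sox9, time in H3K4me3 and antibody, and it changed no other call. With 4 pairs the time block cannot reach that level. The Sox9 share of members at ends moved from 21.25% to 30% with 3000 bp, 6.25% with peaks of 2 or more steps and 7.5% with equal list lengths, where all genes had 18.7%, 0.618% and 1.53%. For H3K4me3 it moved from 26.25% to 38.75%, 12.5% and 12.5%, where all genes had 29.8%, 2.94% and 2.95%. Yap1 made up most of the shares under the last 2 settings. Without it, pairs with an end peak of 2 or more steps numbered 0 of 72 for Sox9 and 3 of 72 for H3K4me3. With equal list lengths Yap1 had an end peak in 5 of 8 Sox9 and 7 of 8 H3K4me3 libraries. Leaving out 1 library gave a share of members at ends of 20% to 22.9% for Sox9 and 21.4% to 30% for H3K4me3. Counts of genes with peaks at a single time were also taken with 3 of 4 libraries in place of 4. Of 21887 genes, they rose to 128 and 32 for Sox9 (10 days, 48 h) and to 475 and 41 for H3K4me3. Lats2 was the 1 member among the 475. With 3000 bp the counts rose to 38, 4, 109 and 6. Peaks of 2 or more steps turned the Sox9 time differences of Yap1 (-1.78) and Tead3 (0.706), where few peaks are left. Equal list lengths turned the antibody difference of Stk4 (0.487). Leaving out 1 library gave a Sox9 time difference of -0.0649 to 0.386 for Yap1. A filter on the deposited q-value removed at most 0.1% of a list. Sequencing depth was not in the lists, so absence of a peak cannot be told apart from low depth.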
